A study of Homo sapiens with 24 samples.

Results

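Antisense long noncoding RNAs (lncRNAs) are transcribed from the strand opposite to another gene, their sense gene, and carry that gene's symbol followed by -AS and a number. The members described here were the annotated lncRNA genes with such a symbol whose level, in counts scaled to a common library total (CPM), averaged at least 3 over all libraries. OIP5-AS1 and EPB41L4A-AS1 were left out by the same rule. The rule kept 321 of the 61533 genes in the deposited table, out of 1812 antisense lncRNA genes, of which 1601 had at least 1 count. The members were thus chosen by their mean level, and levels are given as description only. Nearest to the limit were ZFHX4-AS1 at 3.013 and LIMD1-AS1 at 3.01 CPM inside, and KIAA1614-AS1 at 2.984 and TSPEAR-AS1 at 2.963 CPM outside.

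The cells were U2OS, a human osteosarcoma line with little glucocorticoid receptor (GR) of its own. They stably expressed GR-HaloTag from a transposon with the CMV promoter, as wild type (wt), the K492A mutant (SoF) or the R470A mutant (Ctrl). By the authors' in vitro measurements, K492A loses much RNA affinity and also some DNA affinity. R470A keeps its RNA affinity and was chosen to match the loss of DNA affinity. Whether K492A binds less RNA in cells was not tested in the paper. Each line was 1 sorted pool, so construct and pool cannot be told apart. Dexamethasone, a synthetic GR agonist, was given at 100 nM over 1, 2 or 3 h, and the 0 h cells had 0.01% ethanol instead, with 200 µM 4-thiouridine in the last hour to label newly made RNA, and 2 libraries were made for each of the 12 groups. How long the ethanol cells were kept in ethanol is not given in the sources used here.

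Some antisense lncRNAs start near the sense promoter and run away from it, others start inside the sense gene or beyond its end. A few are known to act on the gene they overlap, and many have no known role. GR is a transcription factor that binds its hormone, enters the nucleus and acts at glucocorticoid response elements to raise or lower transcription. Labelled RNA reads out synthesis over the labelling hour more than the stored pool, and it also includes unspliced transcripts. In such bulk samples fewer cells with an RNA and less of it per cell cannot be told apart.

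Library totals ranged from 8106036 to 15820806 counts, and the lowest count of any member in any library was 4. NR3C1, which encodes GR, averaged 769 CPM in wt, 2849 in SoF and 3496 in Ctrl, so the lines also differed in receptor RNA. Over all libraries it ranged from 333 to 7643 CPM. The authors picked sorted fractions with matching nuclear GR protein, which these RNA levels do not measure. The GR target FKBP5 rose by 3.06 on the log2 scale at 3 h, as an average of the 3 lines. Among osteoblast lineage genes, RUNX2 averaged 102 CPM, COL1A1 560 CPM and ALPL 23.3 CPM, whereas SP7, COL1A2, BGLAP and IBSP were each below 1 CPM and SPP1 was at 1.44 CPM. The 0 h libraries of replicate 1 and replicate 2 differed in the same way in all lines, with correlations of their deviations between lines of 0.394 to 0.568. The counts of members called against 0 h are therefore also given without the 0 h libraries of either replicate.

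A sense gene was found by name for 317 members, 2 of them through an older symbol, and these members had 312 distinct sense genes, of which 308 were protein coding. The annotated spans put 148 pairs in head-to-head overlap, 64 in tail-to-tail overlap, 75 with one gene inside the other and 23 divergent without overlap. Another 5 pairs had none of these layouts. FAM131B-AS2 and PYDC2-AS1 lie on the same strand as the gene they are named for and were left out of the pairs, which leaves 315. The starts of antisense and sense gene were within 2000 bases in 141 pairs, and the median distance was 5081 bases. Exons of the members summed to a median of 4013 bases, from 553 to 37876, and 41 members had a single exon.

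The exons of 243 members overlapped exons of the sense gene on the other strand, over 50% of the antisense length in 13. Only the name of the deposited table says that strand entered the counting. Reads from opposite strands are therefore treated as uncertain for these pairs. A gene on the same strand overlapped 97 members, whose reads could come from either gene. Of the members given with values, ATP2B1-AS1, THBS3-AS1, NR2F2-AS1, DIRC3-AS1, TAGAP-AS1, GNAS-AS1, THUMPD3-AS1, PSMA3-AS1, NECTIN3-AS1, ADIRF-AS1, NUTM2A-AS1, PYDC2-AS1, PCBP1-AS1 and FLG-AS1 are among them.

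Promoter windows from RefSeq (GRCh38.p14, 250 bases before to 50 bases after the start) were found for 243 members. The RefSeq start lay within 100 bases of the GENCODE start in 164 of them and farther off in the rest, by 121187 bases for SOX9-AS1. The shares of member windows given below take in all 243. Those shown belong to the 2 rising and the 2 falling members with the smallest p at 3 h whose window starts within 100 bases of the GENCODE start and overlaps no annotated untranslated region. Capitals mark matches to the letters searched on both strands: the palindromic glucocorticoid response element (by name here), its hexamer AGAACA, which overlaps it, the TATA box TATAAA, the NF-Y box CCAAT, the AP-1 site TGACTCA, the cyclic AMP response element TGACGTCA and the GC box GGGCGG. The windows are chr3:188947590-188947889 for TPRG1-AS1, chr1:47434592-47434891 for FOXD2-AS1, chr2:201157743-201158042 for CFLAR-AS1 and chr15:96327312-96327611 for NR2F2-AS1, each on the minus strand and written 5′ to 3′.
TPRG1-AS1: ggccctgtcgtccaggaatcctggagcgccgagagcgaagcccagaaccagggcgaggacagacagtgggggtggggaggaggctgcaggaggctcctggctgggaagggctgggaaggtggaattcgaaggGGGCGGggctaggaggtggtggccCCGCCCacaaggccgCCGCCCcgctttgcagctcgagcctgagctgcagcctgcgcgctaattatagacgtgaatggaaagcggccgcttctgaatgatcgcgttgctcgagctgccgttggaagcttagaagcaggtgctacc
FOXD2-AS1: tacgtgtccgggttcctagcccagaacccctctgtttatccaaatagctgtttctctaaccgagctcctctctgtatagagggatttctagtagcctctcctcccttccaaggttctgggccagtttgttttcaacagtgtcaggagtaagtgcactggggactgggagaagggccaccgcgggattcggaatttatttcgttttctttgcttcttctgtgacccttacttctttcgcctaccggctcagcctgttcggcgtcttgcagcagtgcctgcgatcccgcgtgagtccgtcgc
CFLAR-AS1: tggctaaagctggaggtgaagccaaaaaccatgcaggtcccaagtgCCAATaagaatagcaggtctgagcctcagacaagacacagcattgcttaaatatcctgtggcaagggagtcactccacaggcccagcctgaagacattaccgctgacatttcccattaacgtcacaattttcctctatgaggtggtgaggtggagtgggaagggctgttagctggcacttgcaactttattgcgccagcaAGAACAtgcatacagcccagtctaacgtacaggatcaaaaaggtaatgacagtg
NR2F2-AS1: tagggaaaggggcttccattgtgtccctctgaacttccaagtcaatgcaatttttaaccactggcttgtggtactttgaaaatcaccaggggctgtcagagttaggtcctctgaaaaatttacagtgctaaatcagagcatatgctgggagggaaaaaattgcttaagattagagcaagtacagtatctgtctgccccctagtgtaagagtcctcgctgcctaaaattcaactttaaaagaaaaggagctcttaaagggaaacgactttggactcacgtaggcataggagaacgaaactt
The window of TPRG1-AS1 held 3 matches, all to GGGCGG. That of CFLAR-AS1 held CCAAT and AGAACA, and those of FOXD2-AS1 and NR2F2-AS1 held none of the letters searched. The full response element letters were in 0 of the 243 member windows and in 0.407% of all 27305 RefSeq windows. The hexamer AGAACA was in 7% of member windows and in 15.1% of all windows. GGGCGG was in 59.7% of member windows against 43.8% of all, with 65.7% of the 35 windows of members that rose at 3 h, 45.1% of the 71 of members that fell and 65.7% of the 137 of members not called. TATAAA was in 5.35% of member windows against 12.1% of all, and TGACTCA in 4.94% against 5.04%. CCAAT was in 27.6% against 35.6%, and TGACGTCA in 4.12% against 1.94%. None of these shares was tested.

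Mean levels of the members, scaled by the trimmed mean of M values (TMM), had a median of 7.81 CPM against 30.4 CPM for their sense genes. THUMPD3-AS1 was the highest at 173 CPM, followed by PSMA3-AS1 at 150 CPM, NECTIN3-AS1 at 122 CPM, ADIRF-AS1 at 102 CPM and NUTM2A-AS1 at 95.3 CPM. Per kilobase of exon, the sense gene was the higher in 206 of the 315 pairs and the antisense lncRNA in 109, with a median log2 difference of -0.88, antisense minus sense. The antisense lncRNA was at least 10 times the higher in 40 pairs, and the sense gene in 52. ALDH1A3-AS1 was at 0.603 CPM per kilobase against 0.0172 for ALDH1A3, a retinaldehyde dehydrogenase gene, while IER3-AS1 was at 4.18 against 775 for IER3, a stress-induced survival gene. The counts of IER3-AS1 amounted to 0.353% of those of IER3, and 49.9% of its exon length lies opposite IER3 exons. Counts below 2% of the sense gene's were found in 11 members, 5 of them with exon overlap, and the part of opposite-strand reads in them was not tested.

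**Figure D1:**
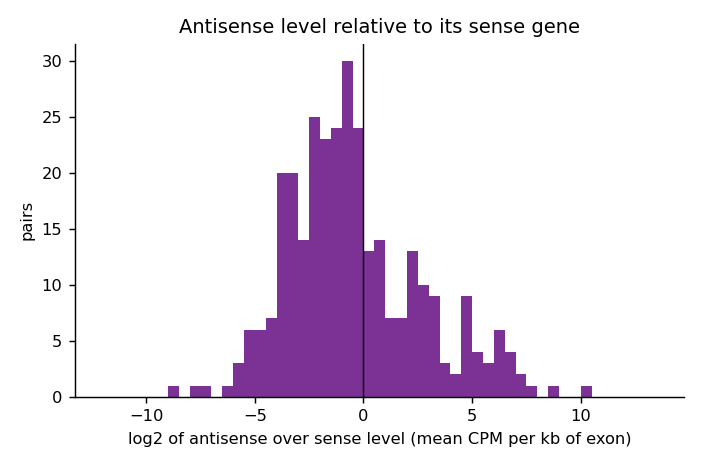
Number of pairs (y axis) by the log2 ratio of antisense to sense level (x axis, mean CPM per kilobase of exon over 24 libraries). Most of the 315 pairs lie left of 0, where the sense gene is the higher, and 109 lie right of it.

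Early response to dexamethasone was sparse among the members, as it was over all genes. At 1 h, averaged over the 3 lines, 3 of the 321 members rose and 3 fell (edgeR quasi-likelihood test, adjusted p under 0.05). Over all 23651 genes tested 1.28% were called, 0.731% rising and 0.55% falling. The risers were TPRG1-AS1, ATP2B1-AS1 and SAMD4A-AS1, and the members that fell were IER3-AS1, ITGB2-AS1 and CD63-AS1. Without the replicate 2 libraries at 0 h, 62 members instead of 6 were called (19.3%, against 23% of all genes), and without those of replicate 1 the count was 2 (0.623% against 0.537%).

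TPRG1-AS1 (ENSG00000234076.1, chr3:188941196-188947679, minus strand) starts 465 bases from TPRG1, a gene named as a p63 target, and runs the other way. Its lowest, median and highest levels were 0.809, 1.23 and 2.76 CPM at 0 h and 7.33, 9.24 and 12.7 CPM at 1 h. They were 7.04, 8.66 and 11.6 CPM at 2 h and 4.83, 7.42 and 9.89 CPM at 3 h. Every dexamethasone library was above every ethanol library. The log2 change was 2.81 ± 0.19 (SE) at 1 h (edgeR adjusted p = 1.56e-09) and 2.40 ± 0.19 at 3 h, and the wt, SoF and Ctrl lines changed at 3 h by 1.99, 2.92 and 2.29. TPRG1 itself had medians of 2.00 CPM at 0 h and 2.42 CPM at 3 h with overlapping libraries, a log2 change of 0.31 ± 0.21 (edgeR adjusted p = 0.26).

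ATP2B1-AS1 starts 407 bases from ATP2B1, which encodes a plasma membrane calcium pump. The antisense lncRNA went from 6.80, 7.48 and 9.29 CPM at 0 h, lowest, median and highest, to 13, 16.2 and 23.4 CPM at 1 h, with no overlap. At 3 h it was at 6.61, 9.30 and 12.8 CPM, which overlaps 0 h. Its log2 change was 1.1 ± 0.13 at 1 h (edgeR adjusted p = 3.72e-05) and 0.30 ± 0.14 at 3 h (0.0848). ATP2B1 followed another course, with medians of 69.9 CPM at 0 h, 91.2 CPM at 1 h, 202 CPM at 2 h and 219 CPM at 3 h. The log2 change of ATP2B1 was 0.30 ± 0.15 at 1 h (edgeR adjusted p = 0.366) and 1.62 ± 0.15 at 3 h (2.55e-08), so the ratio of antisense to sense fell by 1.33 on the log2 scale at 3 h (limma adjusted p = 8.41e-06).

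SAMD4A-AS1, inside the gene of a translational repressor, had medians of 4.11 CPM at 0 h and 6.99 CPM at 1 h, with overlapping libraries and a log2 change of 0.89 ± 0.21 (edgeR adjusted p = 0.0291). IER3-AS1 was at 4.58, 6.12 and 9.75 CPM at 0 h and at 2.38, 2.75 and 3.05 CPM at 1 h, with no overlap. IER3 had medians of 1637 CPM at 0 h and 757 CPM at 1 h, and the 1 h log2 changes were -1.23 ± 0.19 for IER3-AS1 and -1.02 ± 0.14 for IER3 (edgeR adjusted p = 0.000726 and 0.000135). ITGB2-AS1 changed by -0.94 ± 0.22 (edgeR adjusted p = 0.0318) and CD63-AS1 by -0.52 ± 0.13 (0.0428) on the log2 scale. CD63, which encodes a tetraspanin of late endosomes, changed by -0.56 ± 0.11 at 1 h (0.00505). The calls of SAMD4A-AS1, ITGB2-AS1 and CD63-AS1 were each lost when single libraries were left out.

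By 2 h, 36 members rose and 75 fell, 34.6% in all, against 28.8% of all genes, of which 16.2% rose and 12.6% fell. Without the 0 h libraries of replicate 2, 15 rose and 26 fell at 2 h (12.8%, against 13.9% of all genes), and without those of replicate 1, 49 rose and 88 fell (42.7% against 41.7%). At 3 h, 44 members (13.7%) rose and 104 (32.4%) fell, 46.1% in all, against 40.3% of all genes, of which 20.9% rose and 19.3% fell. Without the 0 h libraries of replicate 1, 53 rose and 106 fell at 3 h (49.5%, against 46.7% of all genes), and without those of replicate 2, 36 rose and 82 fell (36.8% against 28.8%). Of all lncRNA genes tested, 8.66% rose and 24.6% fell. Of the 285 sense genes tested, 75 rose and 60 fell. The median log2 change at 3 h was -0.16 in the members, 0.01 in their sense genes, -0.03 over all genes and -0.23 over lncRNA genes. The members together took 0.511 ± 0.045% (SD, n = 6) of all counts at 0 h, 0.541 ± 0.038% at 1 h, 0.447 ± 0.041% at 2 h and 0.437 ± 0.024% at 3 h. Of the 97 members that overlap a gene on the same strand, 7 rose and 43 fell at 3 h, and of the other 224, 37 rose and 61 fell.

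**Figure D2:**
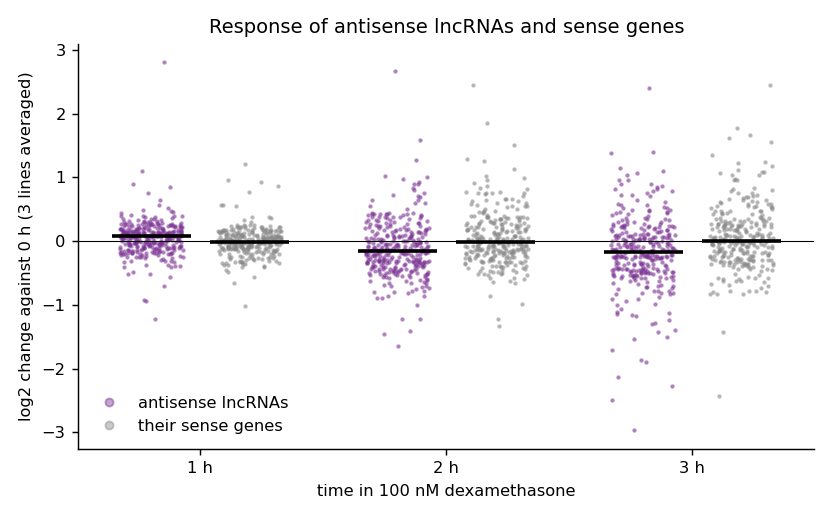
Log2 change against 0 h (y axis, average of the 3 lines) at 1, 2 and 3 h (x axis) for each antisense lncRNA and each sense gene tested, with a bar at the median. At 3 h the median is -0.16 for the antisense lncRNAs and 0.01 for the sense genes.

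All 6 libraries at 3 h were above all 6 at 0 h in 17 members and below in 42, which is 5.30% and 13.1%, against 9.89% and 6.76% of all genes. Within single lines at 3 h, 11 members rose and 28 fell in wt, against 10.7% of all genes called (6.6% and 4.12%). In SoF 23 rose and 52 fell, against 19.3% (11.2% and 8.11%), and in Ctrl 18 rose and 31 fell, against 14.2% (8.58% and 5.6%). The falling members outnumbered the rising in each line, while over all genes the rising outnumbered the falling. The same excess of falls was found over all lncRNA genes tested, of which 111 rose and 300 fell in wt, 200 and 575 in SoF and 125 and 312 in Ctrl. These counts rest on 2 libraries a group: without 1 library the wt count ranged from 12 to 46, the SoF count from 29 to 84 and the Ctrl count from 9 to 64. Without the 0 h libraries of replicate 1 in all lines, 10 rose and 32 fell in wt, 35 and 58 in SoF and 30 and 50 in Ctrl. Without those of replicate 2 the counts were 6 and 21, 9 and 28, and 5 and 9. For single lines, the shares of all genes under these omissions are not given here. A change in the members and a general change in calls therefore cannot be told apart in these counts. Of the 104 members that fell in the average, 63 also fell at 2 h and 2 at 1 h. Of the 44 that rose, 27 also rose at 2 h and 1 at 1 h. All these comparisons use the same 0 h libraries, so such overlap is partly built in. Its share over all genes is not given here.

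Among the rising members, FOXD2-AS1 (ENSG00000237424.1, chr1:47432133-47434641, minus strand) has a single exon and starts 3403 bases from FOXD2, a forkhead transcription factor gene. It had 14.4, 21 and 31.2 CPM at 0 h, lowest, median and highest, and 47.4, 55.7 and 65.3 CPM at 3 h. FOXD2 had 4.20, 7.74 and 11 CPM at 0 h and 17.2, 19.9 and 23.1 CPM at 3 h. Neither gene's 3 h libraries overlapped those at 0 h, and the log2 changes were 1.39 ± 0.14 and 1.35 ± 0.15 (edgeR adjusted p = 7.5e-08 and 3.32e-07). The ratio changed by 0.03 ± 0.14 (limma adjusted p = 0.912).

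LOXL1-AS1 starts 2259 bases from LOXL1, which encodes a lysyl oxidase that cross-links elastin. It went from 19.6, 29.1 and 60.4 CPM at 0 h to 53.7, 62.6 and 92.8 CPM at 3 h, so 1 or more 0 h libraries overlapped the 3 h range. Its log2 change was 1.08 ± 0.16 (edgeR adjusted p = 1.5e-05). LOXL1 had medians of 45.7 CPM at 0 h and 48.7 CPM at 3 h and a log2 change of 0.18 ± 0.10 (0.15), and the ratio rose by 0.92 ± 0.15 (limma adjusted p = 1.46e-05).

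ALDH1A3-AS1 went from 2.00, 2.73 and 4.06 CPM at 0 h to 6.32, 6.74 and 12.4 CPM at 3 h, with no overlap, a log2 change of 1.40 ± 0.17 (edgeR adjusted p = 1.02e-06). ALDH1A3 averaged 0.0916 CPM and was not tested. THBS3-AS1, opposite a thrombospondin gene, had medians of 11.1 CPM at 0 h and 20.1 CPM at 3 h (log2 change 0.90 ± 0.12), and DNAH17-AS1, inside an axonemal dynein gene, 4.54 and 9.73 CPM (1.15 ± 0.17). SLC9A3-AS1, inside the gene of a sodium-proton exchanger, had medians of 4.07 and 8.32 CPM (0.95 ± 0.15) and C10orf95-AS1 9.88 and 18.7 CPM (0.97 ± 0.15). These 4 rose in each single line as well as in the average.

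Among the falling members, CFLAR-AS1 (ENSG00000226312.7, chr2:201140278-201157823, minus strand) lies wholly inside CFLAR, which encodes an inhibitor of caspase-8. It had 25.9, 36.9 and 40.6 CPM at 0 h, lowest, median and highest, 31.2, 46.1 and 64.2 CPM at 1 h, 15.4, 18.0 and 26.1 CPM at 2 h and 9.01, 11.6 and 16.4 CPM at 3 h. CFLAR had 70.8, 75.9 and 77.3 CPM at 0 h and 80.1, 96.1 and 117 CPM at 3 h. The 3 h libraries were all below 0 h for the antisense lncRNA and all above it for CFLAR. The log2 changes were -1.54 ± 0.14 and 0.36 ± 0.08 (edgeR adjusted p = 1.28e-08 and 0.000674), and the ratio fell by 1.88 (limma adjusted p = 1.08e-10).

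DIRC3-AS1 (chr2:216694404-217336120, plus strand) is a long locus that overlaps the end of DIRC3, itself an lncRNA gene. It had 8.39, 12.8 and 20.4 CPM at 0 h, 2.99, 4.58 and 7.93 CPM at 2 h and 0.858, 1.77 and 2.71 CPM at 3 h. The libraries at 2 h and 3 h were all below those at 0 h, with a 3 h level of 0.127 of that at 0 h (log2 change -2.97 ± 0.28, edgeR adjusted p = 2.98e-08). DIRC3 had medians of 1.48 CPM at 0 h and 1.12 CPM at 3 h, with overlapping libraries and a log2 change of -0.37 ± 0.29 (0.316). Genes on the same strand, among them LINC01921, overlap DIRC3-AS1, and their part in its counts was not tested.

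KIF23-AS1 starts 783 bases from KIF23, a kinesin gene needed for cytokinesis. It had 14.7, 31.5 and 50.6 CPM at 0 h and 5.06, 5.71 and 6.02 CPM at 3 h, and KIF23 had 319, 417 and 452 CPM at 0 h and 211, 232 and 282 CPM at 3 h. Both fell without overlap, by 2.49 and 0.74 on the log2 scale (edgeR adjusted p = 2.46e-07 and 2.07e-06), and their ratio fell by 1.65 (limma adjusted p = 8.74e-08). RPL26L1-AS1, which starts 663 bases from a ribosomal protein paralog gene, had medians of 11.8 CPM at 0 h and 3.03 CPM at 3 h. Its log2 change was -1.90 ± 0.17 and that of RPL26L1 was -0.79 ± 0.12 (edgeR adjusted p = 1.2e-08 and 1.82e-05), with a ratio that fell by 1.08.

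HDAC2-AS2 starts inside HDAC2, a histone deacetylase gene. It went from 36.2, 41.8 and 68.2 CPM at 0 h to 14.5, 17.8 and 23.6 CPM at 3 h, with no overlap (log2 change -1.39 ± 0.15, edgeR adjusted p = 3.32e-07). HDAC2 had medians of 72.2 CPM at 0 h and 81.4 CPM at 3 h and changed by 0.16 ± 0.08 (0.13). NR2F2-AS1, which starts 1423 bases from the gene of the nuclear receptor COUP-TFII, had medians of 10.4 CPM at 0 h and 4.52 CPM at 3 h (log2 change -1.14 ± 0.12). NR2F2 had medians of 52.9 and 48.4 CPM and changed by -0.12 ± 0.11 (edgeR adjusted p = 0.397). FAM131B-AS2 fell from a median of 30.2 CPM to 14 CPM (-1.12 ± 0.12), with all 3 h libraries below those at 0 h.

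Of the 5 members with the highest mean level, THUMPD3-AS1, PSMA3-AS1 and ADIRF-AS1 fell at 3 h, by 0.78, 0.82 and 0.90 on the log2 scale. NECTIN3-AS1 also fell, by 0.61 ± 0.19 (edgeR adjusted p = 0.0157), a call lost without the SoF or the Ctrl 3 h library of replicate 1, or without replicate 2 at 0 h in all lines. NUTM2A-AS1 had medians of 87.6 CPM at 0 h and 86.0 CPM at 3 h and did not pass the test (log2 change -0.23 ± 0.14, adjusted p = 0.198).

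**Figure D3:**
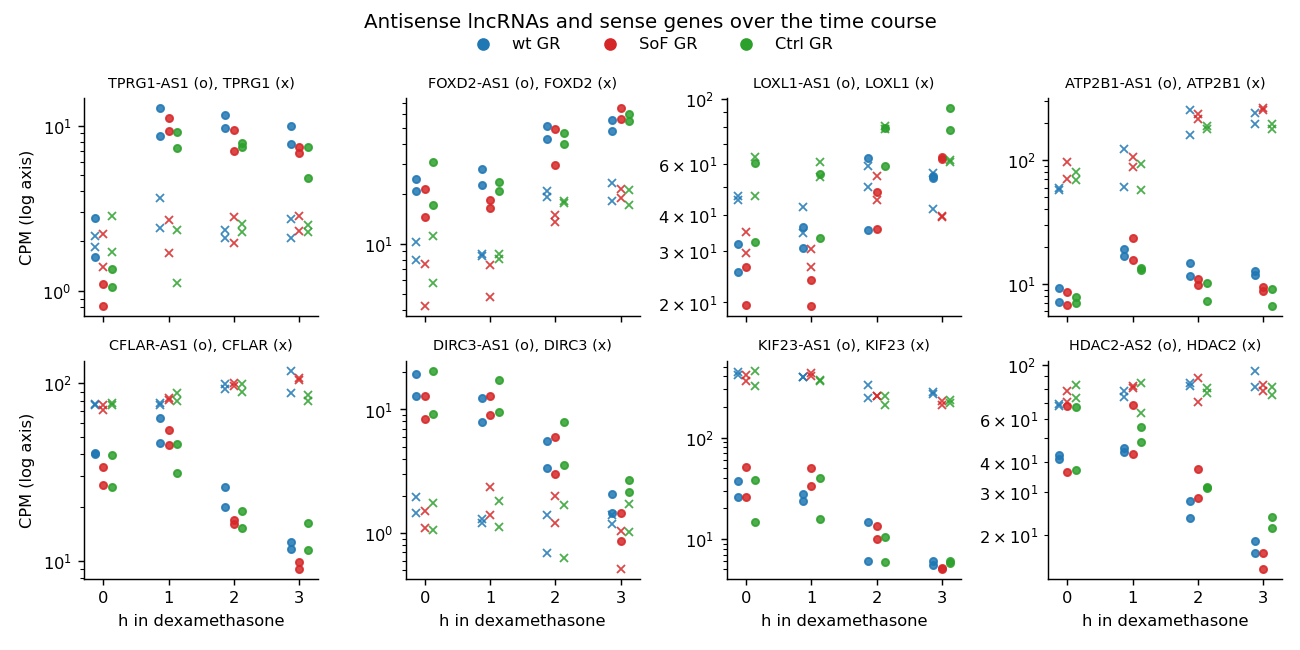
CPM (y axis, log scale) against hours in dexamethasone (x axis) for 8 antisense lncRNAs (circles) and their sense genes (crosses), 1 point a library, coloured by line. The 2 rows show members that rose at 1 h or 3 h and members that fell, for example TPRG1-AS1 from a median of 1.23 to 9.24 CPM at 1 h and CFLAR-AS1 from 36.9 to 11.6 CPM at 3 h.

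By layout, at 3 h, 15 of the 64 tail-overlap members rose and 23 fell, 14 and 48 of the 148 head-overlap members, 9 and 29 of the 75 in which one gene lies inside the other, and 3 and 2 of the 23 divergent members. Over all 321 members 44 rose and 104 fell, and over all genes 20.9% rose and 19.3% fell. The layouts were not tested against each other.

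Both genes of 289 pairs were tested for a change at 3 h. Both rose in 18 pairs, both fell in 29 and the directions were opposite in 22. These counts were 30, 37 and 14 without the 0 h libraries of replicate 1, and 13, 20 and 11 without those of replicate 2. In 14 pairs only the antisense lncRNA passed the test as a rise and in 46 only as a fall, in 42 only the sense gene as a rise and in 26 only as a fall, and in 92 neither passed. Whether both genes passed together more often than their single calls alone would give was not tested. Across pairs, which are not independent replicates and share their libraries, Pearson's r between the 3 h changes was 0.440 and Spearman's rank coefficient 0.446. They were 0.568 and 0.553 in the 139 pairs with starts within 2000 bases and 0.349 and 0.370 in the 150 with starts farther apart.

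**Figure D4:**
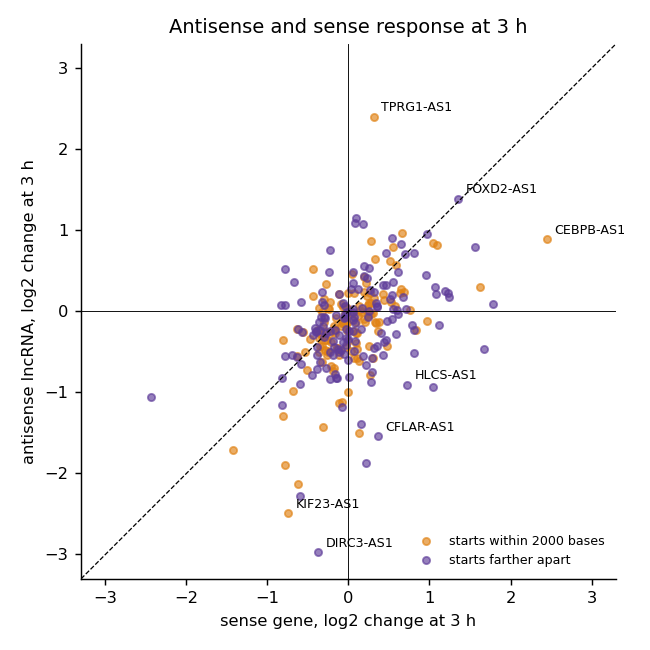
Log2 change at 3 h of the antisense lncRNA (y axis) against that of its sense gene (x axis) for 289 pairs, coloured by whether the starts lie within 2000 bases, with the line of equal change dashed. CFLAR-AS1 and HLCS-AS1 lie below 0 with a sense gene above 0, and FOXD2-AS1 lies near the dashed line.

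A fall of the antisense lncRNA with a rise of the sense gene was the more frequent opposite pattern, in 16 of the 22 pairs, CFLAR, HLCS, NOP14, SREBF2 and WWTR1 among them. Taken singly, more members fell than rose at 3 h, and more sense genes rose than fell. Whether the pattern was more frequent than those counts alone would give was not tested. HLCS-AS1, inside the gene of the enzyme that attaches biotin to carboxylases, went from 8.91, 9.56 and 11.5 CPM at 0 h to 4.29, 5.30 and 6.18 CPM at 3 h. HLCS went from 6.18, 8.81 and 13.9 CPM to 12.9, 14.1 and 18.0 CPM, with 1 or more 0 h libraries in the 3 h range. The log2 changes were -0.90 ± 0.12 and 0.72 ± 0.12 (edgeR adjusted p = 4.56e-06 and 5.52e-05). In the other 6 pairs the antisense lncRNA rose and the sense gene fell. MYLK-AS1 changed by 0.36 ± 0.11 and MYLK, the gene of myosin light chain kinase, by -0.68 ± 0.13 (0.0137 and 0.000328), and the remaining 5 were PRKCQ-AS1, KDM4A-AS1, TRHDE-AS1, NEXN-AS1 and UFD1-AS1.

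Whether antisense and sense moved unequally was tested on their ratio within each library. At 3 h the ratio rose in 18 and fell in 79 of the 289 member pairs (limma, adjusted over all 624 antisense pairs of the table). Over those 624, which include the member pairs, 30.1% were called, 5.93% rising and 24.2% falling. In the member pairs it rose in 24 and fell in 77 without the 0 h libraries of replicate 1, and rose in 13 and fell in 63 without those of replicate 2. At 2 h it rose in 15 and fell in 55, against 18.1% over all pairs (4.33% and 13.8%), and at 1 h it rose in 2 and fell in 1, against 1.28% (0.962% and 0.321%). The falls with the smallest p were those of CFLAR-AS1, HLCS-AS1 (-1.61 ± 0.15), DIRC3-AS1 (-2.48 ± 0.24), HDAC2-AS2 (-1.5 ± 0.15) and FGD5-AS1 (-1.65 ± 0.17). For FGD5-AS1 the sense gene moved: FGD5, a Cdc42 exchange factor gene, rose from 3.53, 4.22 and 7.60 CPM at 0 h to 11.1, 14.9 and 22.9 CPM at 3 h, while FGD5-AS1 had medians of 94.0 and 101 CPM and a log2 change of 0.09 ± 0.08 (edgeR adjusted p = 0.397). Likewise CEBPB-AS1 rose by 0.89 ± 0.17 and CEBPB, a transcription factor gene, by 2.45 ± 0.21 (edgeR adjusted p = 0.000303 and 7.61e-09), with a ratio that fell by 1.67.

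The rises with the smallest p were those of TPRG1-AS1 (2.00 ± 0.23), MYLK-AS1 (1.03 ± 0.15), LOXL1-AS1, KDM4A-AS1 (1.00 ± 0.18) and TRHDE-AS1 (1.23 ± 0.22). KDM4A-AS1, at the end of a histone demethylase gene, had medians of 5.38 CPM at 0 h and 9.15 CPM at 3 h, with no overlap. TRHDE-AS1 had medians of 3.54 and 5.05 CPM, with 3 h libraries above all 0 h libraries.

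No difference between the lines in the 3 h response passed the test in any member. The edgeR quasi-likelihood test of the difference called 0 members for SoF against wt, Ctrl against wt and SoF against Ctrl (0%, 0% and 0.0127% of all genes). DESeq2 also called 0 in each. An unadjusted p under 0.05 was found in 8, 8 and 4 of the 321 members, which is a share below 0.05 in each comparison. At 2 libraries a group this does not show that the lines responded alike.

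Levels between lines, over 8 libraries each and without regard to time, differed in more members. SoF was above wt in 24 members and below in 10 (10.6%), against 8.02% of all genes, 4.57% above and 3.45% below. Ctrl was above wt in 18 and below in 8 (8.10%), against 4.77%, 2.11% above and 2.66% below. SoF was above Ctrl in 9 and below in 7 (4.98%), against 3.61%, 2.16% above and 1.45% below. Without single libraries the count of 34 for SoF against wt ranged from 14 to 47, and it was 13 without replicate 2 at 0 h and 15 without the filter on low counts. With a term for time the members above and below were 66 and 40 for SoF against wt (33.0%, against 29% of all genes), 55 and 38 for Ctrl against wt (29.0% against 18.8%) and 26 and 26 for SoF against Ctrl (16.2% against 13.3%). With scaling to total counts SoF was above wt in 35 members and below in 3, and above Ctrl in 11 and below in 3.

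TAGAP-AS1 (ENSG00000271913.8, chr6:158988178-159088114, plus strand) contains the whole of TAGAP, a gene known from T cells. It had 1.21, 1.80 and 3.03 CPM in wt, lowest, median and highest, 1.2, 1.81 and 3.06 CPM in SoF and 9.08, 14.6 and 27.7 CPM in Ctrl. Ctrl did not overlap the other lines, and the log2 difference was 3.00 ± 0.22 against wt (edgeR adjusted p = 1.21e-09) and 0.02 ± 0.23 for SoF against wt (0.974). TAGAP averaged 0.445 CPM in wt, 0.669 in SoF and 0.699 in Ctrl.

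EPHA2-AS1, which starts 893 bases from the ephrin receptor gene EPHA2, had 5.02, 5.91 and 6.49 CPM in wt, 4.55, 7.07 and 10.6 CPM in SoF and 10.5, 14.1 and 20.6 CPM in Ctrl. Ctrl lay above wt without overlap and met the SoF range at its edge, with a log2 difference of 1.27 ± 0.14 from wt (edgeR adjusted p = 5.73e-06). EPHA2 had medians of 548, 489 and 442 CPM in wt, SoF and Ctrl, a difference of -0.25 ± 0.23 (0.601). LOXL2-AS1 had medians of 7.92, 10.4 and 16.3 CPM in wt, SoF and Ctrl, with Ctrl above wt by 0.93 ± 0.13 (6.42e-05). LOXL2, a lysyl oxidase gene, had medians of 35.1, 33.8 and 32.4 CPM, with overlapping libraries.

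TMEM132D-AS1 had 2.08, 3.45 and 4.93 CPM in wt, 5.10, 7.61 and 9.34 CPM in SoF and 1.18, 2.18 and 2.65 CPM in Ctrl. SoF did not overlap the other lines, and exceeded wt by 1.07 ± 0.17 and Ctrl by 1.84 ± 0.18 on the log2 scale (edgeR adjusted p = 0.000228 and 8.98e-08). Its sense gene TMEM132D averaged 0.0588 CPM in wt, 0.0545 in SoF and 0.136 in Ctrl. EXTL3-AS1 had 3.01, 4.07 and 5.07 CPM in wt, 6.83, 7.98 and 9.83 CPM in SoF and 3.17, 4.27 and 6.20 CPM in Ctrl, again with no overlap for SoF. EXTL3, a heparan sulfate synthesis gene on chromosome 8, moved with it, with log2 differences of SoF from wt of 1.03 ± 0.14 for EXTL3-AS1 and 0.78 ± 0.11 for EXTL3 (3.47e-05 and 4.75e-05). Their ratio differed by 0.24 ± 0.15 (limma adjusted p = 0.314).

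PAX8-AS1 had 7.85, 9.25 and 10.2 CPM in wt, 11.5, 15.8 and 20.0 CPM in SoF and 8.98, 10.4 and 13.4 CPM in Ctrl, so SoF lay above wt without overlap (0.78 ± 0.12, edgeR adjusted p = 0.000138). MAGI2-AS3, which starts 790 bases from the scaffold protein gene MAGI2, had medians of 60.2, 94.0 and 55.5 CPM in wt, SoF and Ctrl, with SoF above Ctrl without overlap by 0.70 ± 0.10 (9.37e-05). MAGI2 was above Ctrl in SoF by 0.62 ± 0.17 (0.0331). PYDC2-AS1 was also above Ctrl in SoF, by 1.79 ± 0.28 (0.000161), with medians of 12.4 and 4.26 CPM.

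GNAS-AS1 and SLFNL1-AS1 were among the members above wt in both mutant lines. GNAS-AS1, at the imprinted locus of the stimulatory G protein alpha subunit, had medians of 10.4 CPM in wt, 19.9 CPM in SoF and 19.6 CPM in Ctrl, with log2 differences from wt of 0.73 ± 0.13 and 0.81 ± 0.13 (edgeR adjusted p = 0.00122 and 0.000571). GNAS differed by 0.36 ± 0.06 and 0.33 ± 0.06, and 30.8% of the exon length of GNAS-AS1 lies opposite GNAS exons. SLFNL1-AS1 had medians of 26.7, 55.4 and 45.7 CPM in wt, SoF and Ctrl. FGD5-AS1 was lower in both mutant lines, with medians of 113, 96.9 and 79.7 CPM and log2 differences from wt of -0.20 ± 0.06 in SoF and -0.48 ± 0.06 in Ctrl (0.0459 and 3.13e-05).

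**Figure D5:**
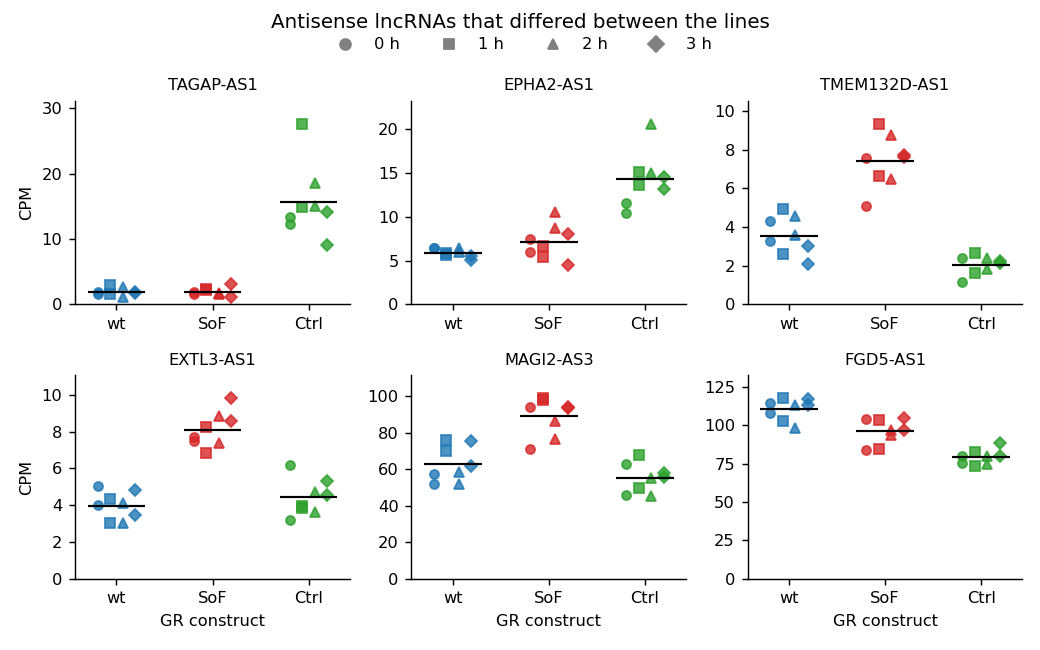
CPM (y axis) in the wt, SoF and Ctrl lines (x axis) for 6 antisense lncRNAs, 1 point a library, shaped by time, with a bar at the mean of 8 libraries. TAGAP-AS1 and EPHA2-AS1 are highest in Ctrl, TMEM132D-AS1, EXTL3-AS1 and MAGI2-AS3 in SoF, and FGD5-AS1 in wt.

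The ratio of antisense to sense, averaged over the 4 times, was above wt in 30 and below in 8 pairs in SoF, against 8.65% of all 624 pairs (6.41% and 2.24%). In Ctrl it was above wt in 24 and below in 10, against 8.81% (5.93% and 2.88%). Between SoF and Ctrl it was higher in SoF in 5 and lower in 7, against 2.56% (1.12% and 1.44%). Leaving out the SoF 0 h library of replicate 2 gave 18 instead of 38 pairs for SoF against wt, and leaving out that of replicate 1 gave 69. Without single libraries the count of 34 for Ctrl against wt ranged from 28 to 56, the highest without wt 1 h replicate 2, and that of 12 for SoF against Ctrl from 6 to 13, the lowest without SoF 2 h replicate 1. TMEM92-AS1 had the smallest p for SoF against wt, with a ratio higher by 1.67 ± 0.22 (limma adjusted p = 8.58e-06). TMEM92-AS1 averaged 1.93, 3.27 and 4.73 CPM in wt, SoF and Ctrl, and TMEM92 2.51, 1.27 and 1.49 CPM. SCUBE3-AS1 followed with 1.18 ± 0.16 and PCBP1-AS1 with 0.83 ± 0.13 for SoF against wt. EPHA2-AS1 (1.48 ± 0.15) and PRKAR1B-AS1 (1.34 ± 0.18) had ratios above wt in Ctrl. The ratio was higher in SoF than in Ctrl for FLG-AS1 (1.87 ± 0.25) and MAGEA4-AS1 (0.97 ± 0.14), and lower for TAGAP-AS1 (-2.77 ± 0.32).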

How the data were processed

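The 24 libraries of 12 groups held 4-thiouridine-labelled RNA of U2OS cells. The authors tagged molecules with UMI-tools 1.1.2, trimmed reads with Trim Galore 0.6.6, aligned them to hg38 with STAR 2.7.3a, removed duplicates and assigned reads to GENCODE release 39 exons by featureCounts. The deposited values are whole-number counts without normalization. No library was pooled or left out. Symbols and positions came from GENCODE release 44 (61369 of 61533 IDs matched, 99.7%).

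CPM is the count relative to the library total, TMM-scaled except in the rule on level. Counts were tested in edgeR 4.0.16 (R 4.3.3) with TMM scaling, filterByExpr (minimum count 10, minimum total 15) and the quasi-likelihood F test on the 12 groups, or on construct alone for the lines. P-values were adjusted by Benjamini-Hochberg over all genes tested and called under 0.05. All 321 members passed the filters. Ratios of antisense to sense CPM (prior count 2) were tested in limma 3.58.1 with a variance trend. The scripts were tested on simulated data. Alternatives were RLE and total-count scaling, no filter, the replicate block, DESeq2 1.42.0, a time term, prior count 0.5, no variance trend, other level limits and libraries left out. The labels do not say that the 2 libraries of a group came from separate cultures, so p-values measure the spread between libraries. In the fit on construct alone that spread also takes in the differences between the 4 times of a line. Replicate spread (common coefficient of variation 14.2% over the 12 groups) and counting error both set the precision, the latter more at low counts. Members and lists were chosen with earlier results of these data known. Members were named by fixed rules: the smallest p in each comparison and direction, the highest levels and every call at 1 h. CEBPB-AS1, NOP14-AS1, SREBF2-AS1, WWTR1-AS1 and the members with opposite directions were named after their values were seen.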

Additional observations from a re-analysis of the deposited data

Results flagged for a closer look

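The level of 1 library lay far from the other 7 of its line in 3 of the 36 groups of 8 libraries examined, over 12 members that differed between lines. Chance flags about 1 in 20 groups of like replicates, but each group here holds the 4 times of a line, so that rate need not apply. EPHA2-AS1 had 20.6 CPM in the Ctrl library of 2 h, replicate 2, and the next Ctrl library had 15.1 CPM. EPHA2-AS1 also rose at 2 h over the 3 lines, by 0.39 ± 0.13 on the log2 scale (edgeR adjusted p = 0.0324). TMEM92-AS1 had 7.17 CPM in the Ctrl library of 2 h, replicate 1, against 5.25 CPM in the next. PYDC2-AS1 had 15.2 CPM in the wt library of 1 h, replicate 2, against 8.90 CPM in the next.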

How the results depend on the processing

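The member count at 3 h stayed between 118 and 159 over all alternatives (148 as reported), the ratio count at 3 h between 76 and 101, and the count of pairs with both genes in the same direction between 33 and 67. The tests of the difference in response gave 0 under each alternative. At 1 h (6 as reported) the count was 16 without the filter, 10 with DESeq2, 2 without replicate 1 at 0 h in all lines, 62 without replicate 2, and 3 to 18 without single libraries (18 without Ctrl 0 h replicate 2, 13 without SoF 0 h replicate 2, 3 without wt 0 h or Ctrl 0 h replicate 1 or Ctrl 1 h replicate 2). At 2 h it was 41 without replicate 2 at 0 h and 77 to 121 without single libraries. At 3 h, wt gave 12 to 46, SoF 29 to 84 and Ctrl 9 to 64 without single libraries. The count in wt was 23 and 16 without its 0 h replicates 1 and 2, and 18 and 12 without those of 3 h. SoF gave 29 without its 0 h replicate 2 and 38 and 33 without those of 3 h, and Ctrl gave 9, 21 and 16 likewise. Without replicate 2 at 0 h in all lines SoF gave 37 and Ctrl 14, and without replicate 1 Ctrl gave 80. SoF against wt (34 as reported) gave 15 without the filter, 106 with a time term, 19 and 13 without replicate 1 or 2 at 0 h, and 14 to 47 without single libraries. It was 14 to 22 without wt 0 h, 2 h or 3 h replicate 1, wt 3 h replicate 2, or SoF 0 h, 1 h or 2 h replicate 2. The time term gave 93 for Ctrl against wt and 52 for SoF against Ctrl, with 18 to 30 and 12 to 20 without single libraries. The ratio for SoF against wt gave 16 without the variance trend, 20 without replicate 2 at 0 h and 18 to 69 without single libraries. It was 69 without SoF 0 h replicate 1, 65 without wt 1 h replicate 2, and 18 to 25 without wt 0 h, 2 h or 3 h replicate 1, SoF 3 h replicate 1, or SoF 0 h, 1 h or 2 h replicate 2. That for Ctrl against wt gave 28 to 56 without single libraries (56 without wt 1 h replicate 2, 55 without Ctrl 0 h replicate 1), and that for SoF against Ctrl 6 without the trend and 6 to 13 without single libraries (6 or 7 without either SoF 2 h library, SoF 1 h replicate 2 or Ctrl 1 h replicate 2). The cause of these shifts was not tested.

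Replicate numbers paired the 3 groups of 0 h (correlations of deviations from 0.394 to 0.568) but not the groups as a whole: deviations correlated above 0.1 in 21 of 66 pairs of groups (median 0.038, from -0.221 to 0.568). With the replicate block 150 members were called at 3 h, 121 at 2 h and 9 at 1 h, with 49 in wt, 87 in SoF and 61 in Ctrl at 3 h. It gave 36, 27 and 14 for the line comparisons and 100 for the ratio.

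NUTM2A-AS1 reversed to a log2 change of 0.14 at 3 h without replicate 2 at 0 h, and neither value passed the test. Of 423 values of named members under other methods, 416 kept direction and call, and of 1464 with single libraries left out, 1429 did. A mean CPM of at least 1 would keep 534 members and one of at least 10 would keep 127. Scaling to total counts gave 27 rising and 98 falling members at 2 h, against 36 and 75.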
